A study of Mus musculus with 12 samples.

Results

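The 7 genes Cd5l, Siglec1, Mrc1, Cd163, Lyve1, Arg1 and Lilrb4, which mark macrophages entering the brain or living at its borders, were followed through the first 60 days after a stroke in cells sorted as astrocytes. They were taken as a list of 7 symbols out of 15774 in the count table, and all 7 passed the filter on low counts that left 15635 genes. The genes were chosen by name with their levels over the 6 groups of these libraries already known, so those levels are the values that chose them. Levels and fold changes of the 7 are given as a description, with no test. The mice were wild-type C57BL/6J. In the stroke groups the distal middle cerebral artery was ligated permanently and both common carotid arteries were then blocked for 7 min, and the sham group had only a lesion made at the skull surface. Astrocytes were sorted by flow cytometry from the cerebral cortex at days 1, 3, 7, 21 and 60, and total RNA was sequenced. The 6 groups have 2 libraries each, 12 in all. The age of the mice, the marker used for the sort, and whether a library came from 1 animal or a pool are not given in the sources used here. P-values below, given for other genes alone, measure only the spread between these libraries, which may be technical.

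Library totals ran from 13006008 to 16575045 counts in replicate 1 and from 97056596 to 156128922 in replicate 2. The same number of counts is therefore a lower level in replicate 2. A count of 3, used as the floor where a gene had none, equals 0.167 to 0.2015 CPM in replicate 1 and 0.02175 to 0.0289 CPM in replicate 2. CPM is the count brought to a common library total, here after scaling by TMM, a factor that balances the bulk of genes between libraries. The libraries held transcripts of genes typical of other cell types, and which cells these came from was not tested. The summed level of 12 genes of meningeal and perivascular fibroblasts went from 97.2 and 107 CPM in the sham libraries to 91070 and 289400 CPM at day 7, while 14 astrocyte genes summed to 9919 and 8431 CPM in sham and 2424 and 1825 CPM at day 7. Fewer cells of a type and less RNA per cell cannot be told apart in such bulk libraries.

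Macrophages of the central nervous system fall into microglia in the parenchyma and border-associated macrophages around vessels and in the meninges. After an infarct, monocytes leave the blood, enter the tissue and become macrophages that clear dead cells and lipid. Scavenger receptors such as Mrc1, Cd163 and Lyve1 are textbook markers of the border population. Arg1 marks an early reparative state of macrophages that have come from monocytes, and Cd5l and Siglec1 are made by tissue macrophages in many organs.

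The 7 genes did not share 1 time course. Arg1 and Lilrb4 were already far above sham at day 1 and highest at day 3, and Siglec1 was highest at day 7. Cd5l was highest at day 60 in each replicate after TMM scaling, though with plain library totals this held in replicate 1 alone. Mrc1 and Lyve1 stayed at low levels with smaller differences from sham, and Cd163 was below sham in both libraries at days 7, 21 and 60. At day 1 both libraries lay above both sham libraries for 5 of the 7 genes, where 33.8% of all tested genes did so. Siglec1 is among the 5, though its level in day 1 replicate 2 was under the floor of sham replicate 1. The count was 6 of 7 at day 3 (35.0% of all genes), 6 of 7 at day 7 (40.4%), 5 of 7 at day 21 (38.4%) and 4 of 7 at day 60 (33.1%). None lay below sham at day 1 or day 3, where 33.2% and 31.2% of all genes did. Cd163 did at day 7 (36.0%), Cd163 and Arg1 did at day 21 (35.4%), and Cd163 did at day 60 (34.3%). With Cd5l and Siglec1 entered at their lower bounds, the median log2 fold change of the 7 against sham was 2.07, 6.18, 3.46, 2.35 and 1.65 at the 5 times. The median over all tested genes was 0.06, 0.16, 0.13, 0.07 and 0.005. Between neighbouring times, both libraries at day 3 were above both at day 1 for 6 of the 7 genes, Cd163 being the other (20.4% of all genes), and below for none (17.0%). At day 7 Siglec1 was above day 3 (27.3% of all genes) and Cd163, Lyve1 and Arg1 were below it (25.4%). At day 21 Mrc1 and Lyve1 were above day 7 (25.6%) and Siglec1, Cd163 and Arg1 below it (23.9%), and at day 60 Cd5l was above day 21 (17.5%) and Siglec1 and Lyve1 below it (20.3%). Since the genes were chosen with these comparisons known, nothing is read from the counts.

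**Figure D1:**
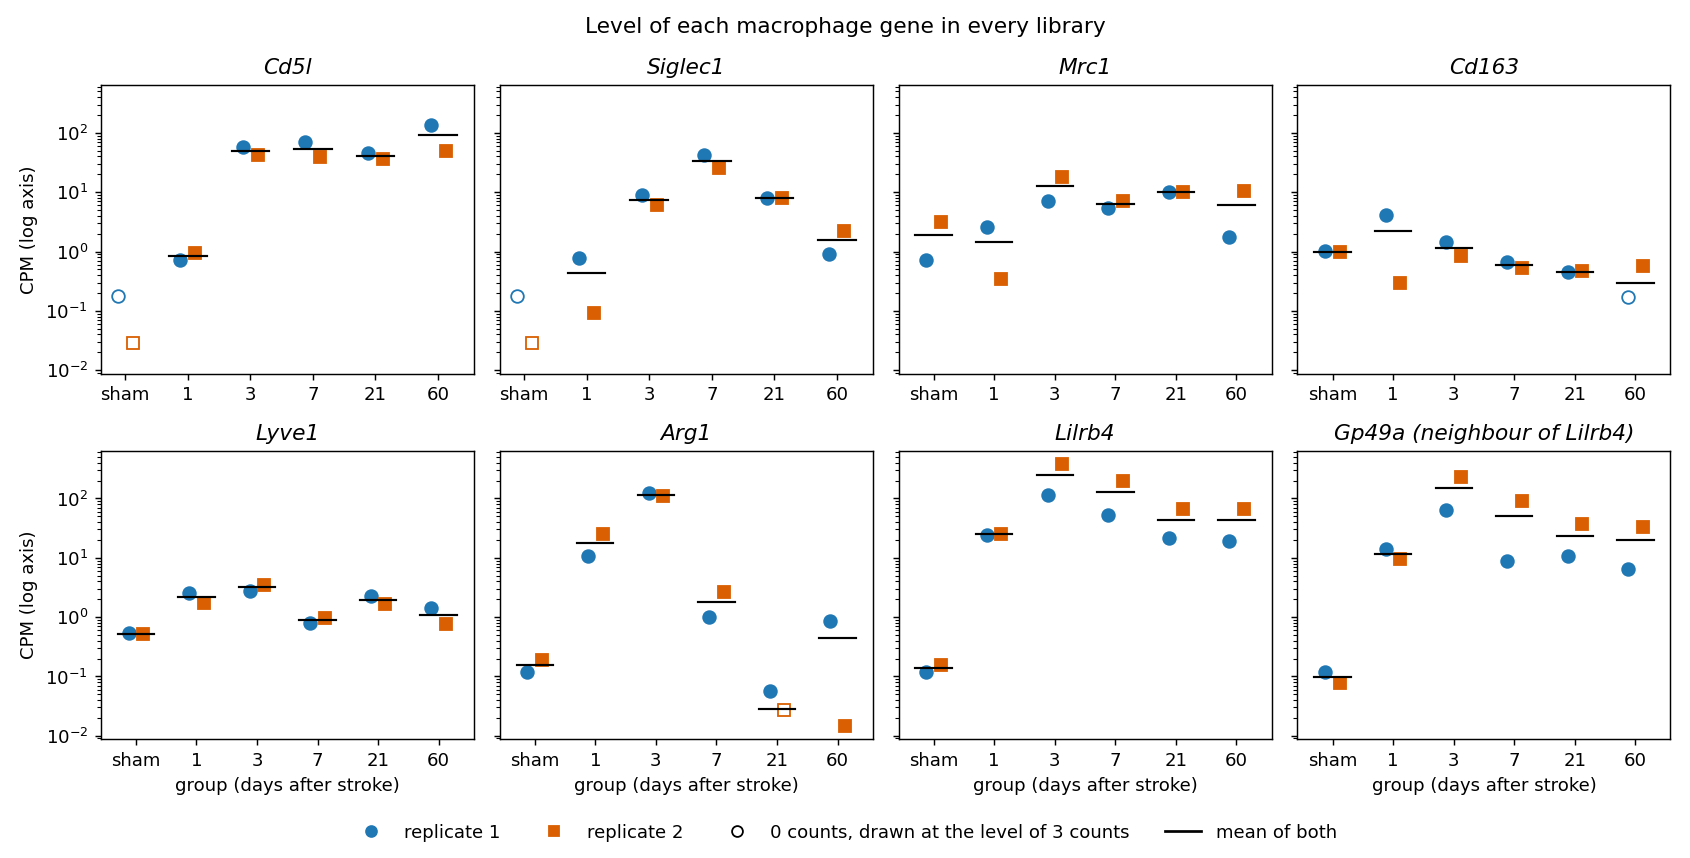
Level of each of the 7 genes, and of Gp49a, in every library, as CPM on a log axis, against the group (sham or days after stroke). Circles are replicate 1, squares replicate 2, bars the mean of both, and open symbols stand for 0 counts drawn at the level of 3 counts. Arg1 and Lilrb4 peak at day 3, Siglec1 at day 7, and Cd5l remains at 36.8 CPM or more from day 3 to day 60.

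Cd5l encodes a secreted protein of the scavenger receptor cysteine-rich family that tissue macrophages release and that acts on lipid handling and cell survival. The gene lies on the forward strand of chr3:87357881-87371073 (GRCm38). Neither sham library had a count of it. Replicates 1 and 2 had 0.723 and 0.957 CPM at day 1 and 56.9 and 42.5 CPM at day 3. The level then held, with 69.1 and 38.7 CPM at day 7, 46.2 and 36.8 CPM at day 21 and 133.6 and 48.6 CPM at day 60. Every library from day 3 on lay far above both day 1 libraries, and the groups of days 3, 7 and 21 overlapped. Against the sham floor of 3 counts a library, the mean was at least 8.07-fold higher at day 1, 478-fold at day 3, 518-fold at day 7, 399-fold at day 21 and 876-fold at day 60. The log2 fold change was 5.86 ± 0.62 (SE) for day 3 against day 1 and 1.13 ± 0.50 for day 60 against day 21. Both day 60 libraries were above both day 21 libraries, by little in replicate 2, and with plain library totals in place of TMM the groups overlapped. With plain totals replicate 2 was highest at day 3, with 45.4 CPM against 43.8 CPM at day 60.

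Cd5l was also set against the summed level of other macrophage genes. As a share of the summed CPM of 20 genes that macrophages and microglia have in common, Cd5l stood at 0.0706% and 0.133% on day 1. On day 3 the shares were 0.574% and 0.775%, and on day 7 they were 0.645% and 0.573%. It then reached 1.43% and 1.09% at day 21 and 7.77% and 3.49% at day 60. That share was higher at day 21 than at day 7 and higher again at day 60 in both libraries. Against 19 other border macrophage genes the shares were 4.25% and 3.15% on day 3, then 2.28% and 1.31% on day 7, 2.53% and 2.27% on day 21, and 9.88% and 2.5% on day 60. There day 21 overlapped day 7 and day 60 overlapped day 21, and replicate 2 at day 60 was below both day 3 libraries, so the late order of the shares depends on the genes Cd5l is set against. A large part of the late border sum was Colec12 alone. It had 724 and 983 CPM of 1353 and 1941 CPM at day 60. At day 3 it had 138.5 and 193 CPM of 1337 and 1348 CPM. Siglec1 by contrast held its largest shares of the 20 shared genes at day 7, with 0.398% and 0.376%, and 0.0533% and 0.158% at day 60. Cd5l is also made outside the brain, by Kupffer cells of the liver, and 6 liver genes, among them Apoa1, Fga and Fgb, were summed beside it. The sum was 282 and 634 CPM in sham, 3.42 to 206 CPM at days 1 to 7, 1056 and 1455 CPM at day 21 and 30.8 and 19.4 CPM at day 60. At day 21 Ttr, a gene of the choroid plexus as well, made up 1055 and 1454 CPM of it. Ttr was nearly all of the sum in sham replicate 1 too. Fga, Fgb and Cps1 had 0 counts there, and Apoa1 and Apoa2 were at 0.777 and 0.478 CPM. The part of liver RNA in the Cd5l values was not tested.

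Promoter windows from RefSeq were matched for 3 of the 7 genes, Cd5l, Mrc1 and Cd163. The 250 bases before each start (GRCm38.p6) are shown to set the gene that stayed highest at day 60 beside a scavenger receptor that was above sham from day 3 to day 21 and one that was not. Capitals mark the letters GAGGAA on either strand, the core bound by the myeloid factor PU.1.
Cd5l, chr3:87357631-87357880, forward strand: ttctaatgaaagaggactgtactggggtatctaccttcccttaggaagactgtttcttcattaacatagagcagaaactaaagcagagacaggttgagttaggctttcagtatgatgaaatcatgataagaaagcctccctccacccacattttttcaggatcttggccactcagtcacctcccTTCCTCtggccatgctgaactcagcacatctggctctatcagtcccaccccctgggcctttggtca
Mrc1, chr2:14229164-14229413, forward strand: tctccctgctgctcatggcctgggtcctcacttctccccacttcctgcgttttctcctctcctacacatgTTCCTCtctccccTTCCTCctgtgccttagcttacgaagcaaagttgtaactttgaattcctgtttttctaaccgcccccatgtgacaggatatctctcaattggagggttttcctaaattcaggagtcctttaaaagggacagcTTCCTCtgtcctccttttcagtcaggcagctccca
Cd163, chr6:124304401-124304650, forward strand: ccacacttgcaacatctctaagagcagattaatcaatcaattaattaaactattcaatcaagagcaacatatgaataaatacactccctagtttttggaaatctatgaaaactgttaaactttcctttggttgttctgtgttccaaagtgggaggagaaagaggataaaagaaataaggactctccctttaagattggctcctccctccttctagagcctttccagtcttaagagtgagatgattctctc
The Cd5l window held 1 match, at positions -66 to -61 from the start, and the Mrc1 window held 3, at -180 to -175, -167 to -162 and -35 to -30, all on the reverse strand. The Cd163 window held 0. Of 32851 mouse promoter windows of the same length, 23.3% held at least 1 match. The STAT6 letters, TTC and GAA with any 4 bases between, which 5.85% of windows held, occurred once, as ttctaatgaa at positions -250 to -241 of Cd5l, apart from the other match. The AP-1 letters TGACTCA (4.46% of windows) and the C/EBP letters TTGCNNAA (9.56%) were in none of the 3. These are matches of letters and say nothing of binding.

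Siglec1, also called sialoadhesin or CD169, is a sialic acid receptor with which macrophages hold on to sialylated cells and particles, and type I interferon is known to raise it. It lies on the reverse strand of chr2:131069220-131086765. It too was without a count in sham, and had 0.778 and 0.0929 CPM at day 1, 8.86 and 6.18 CPM at day 3 and 42.7 and 25.3 CPM at day 7. It was back at 8.01 and 7.86 CPM at day 21 and at 0.916 and 2.20 CPM at day 60. From day 1 to day 60 no library of 1 time overlapped those of the neighbouring times. The level was thus higher at each time after day 1 up to day 7 and lower at each time after it. Day 1 replicate 2 was under the floor of sham replicate 1, 0.179 CPM. The 0 counts of that sham library therefore do not place it below day 1 replicate 2. The mean was at least 4.19-fold above the sham floor at day 1, 72.3-fold at day 3, 327-fold at day 7, 76.3-fold at day 21 and 15.0-fold at day 60. The log2 fold change was 2.18 ± 0.82 for day 7 against day 3, -2.10 ± 0.81 for day 21 against day 7 and -2.31 ± 0.83 for day 60 against day 21. Siglec1 and Cd5l thus began alike, each absent from the counts in sham and each higher at day 3 than at day 1, and parted after day 7. Over the 12 libraries their log2 CPM values had a Pearson r of 0.876.

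Mrc1 encodes the mannose receptor CD206, an endocytic receptor for mannosylated glycoproteins, and is a mainstay for telling border macrophages from microglia. It lies on the forward strand of chr2:14229392-14332057. Its levels were 0.717 and 3.10 CPM in sham, 2.56 and 0.344 CPM at day 1, 7.15 and 18.3 CPM at day 3, 5.37 and 7.17 CPM at day 7, 9.97 and 10.02 CPM at day 21 and 1.78 and 10.4 CPM at day 60. Both libraries were above both sham libraries at days 3, 7 and 21, while days 1 and 60 overlapped sham. The log2 fold change against sham was 2.70 ± 1.09 at day 3, 1.68 ± 1.06 at day 7 and 2.35 ± 1.08 at day 21. Its sham libraries differed 4.32-fold and its day 60 libraries 5.88-fold, so the fold changes are loosely set. The libraries of day 3 overlapped those of day 21, and those of day 7 only barely, with 7.15 against 7.17 CPM. With plain library totals, and with DESeq2's size factors, both day 7 libraries were below both of day 3.

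Cd163 encodes the receptor that takes up haemoglobin bound to haptoglobin, and with Mrc1 and Lyve1 it defines perivascular macrophages. It lies on the forward strand of chr6:124304656-124330527. Its levels were 1.02 and 0.972 CPM in sham, 4.06 and 0.297 CPM at day 1, 1.46 and 0.840 CPM at day 3, 0.672 and 0.521 CPM at day 7 and 0.448 and 0.466 CPM at day 21. At day 60 replicate 1 had 0 counts, which allows up to 0.172 CPM, and replicate 2 had 0.580 CPM. Cd163 was the 1 gene of the 7 with no time at which both libraries were above sham. Both were below sham at day 7 (log2 fold change -0.75 ± 1.42), day 21 (-1.12 ± 1.43) and day 60 (-1.63 ± 1.43), and each standard error is as large as the change or nearly so. The counts behind it are few, with 60 to 118 in both libraries of a group together.

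Lyve1 encodes a hyaluronan receptor of lymphatic endothelium and of a subset of border macrophages. It lies on the reverse strand of chr7:110850607-110863239. It stood at 0.538 and 0.510 CPM in sham, 2.56 and 1.75 CPM at day 1, 2.78 and 3.54 CPM at day 3, 0.806 and 0.958 CPM at day 7, 2.296 and 1.66 CPM at day 21 and 1.43 and 0.754 CPM at day 60. Both libraries were above both sham libraries at all 5 times. The counts are few, with 12 and 103 in replicates 1 and 2 at day 7 against 9 and 53 in sham. The course had 2 high points, with log2 fold changes against sham of 2.03 ± 0.73, 2.59 ± 0.74, 0.76 ± 0.71, 1.91 ± 0.73 and 1.04 ± 0.72 from day 1 to day 60. Day 7, when Siglec1 was highest, was the low point of Lyve1 after stroke by mean level, and its libraries did not overlap those of day 3 or day 21. Among lymphatic genes, Prox1, the factor that sets lymphatic identity, was at 2.39 and 2.68 CPM in sham and between 0.172 and 6.16 CPM after stroke. The 7 lymphatic genes in the files summed to 40.4 and 53.9 CPM in sham, 87.1 to 242 CPM at days 1 to 21 and 48.5 and 57.7 CPM at day 60, and their part in the Lyve1 values was not tested. The median log2 fold change of these lymphatic genes against sham was 1.38, 0.01, -0.44, 1.05 and -0.11 from day 1 to day 60. Pdpn alone among them was called higher at all 5 times by the edgeR test described below. Reln was called lower at days 3 and 7, at day 3 not without any 1 library of sham or day 3.

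Arg1 encodes arginase 1, which splits arginine into ornithine and urea and is a hallmark of alternatively activated macrophages. It lies on the reverse strand of chr10:24915221-24927484. It stood at 0.120 and 0.192 CPM in sham (22 counts in all), 10.6 and 24.8 CPM at day 1 and 121 and 108.5 CPM at day 3. At day 7 it was at 1.01 and 2.63 CPM. At day 21 there was 1 count in replicate 1 and 0 in replicate 2, and at day 60 there were 15 counts in replicate 1 and 2 in replicate 2 (0.859 and 0.0145 CPM). The high levels of Arg1 were thus those of days 1 and 3, and the libraries of days 1, 3 and 7 did not overlap. The log2 fold change was 6.69 ± 1.44 for day 1 against sham, 9.39 ± 1.59 for day 3 against sham and -5.93 ± 1.33 for day 7 against day 3. The mean at day 21 was 0.0280 CPM against 0.156 CPM in sham. With the counts of both libraries pooled, so that the deeper replicate 2 weighs most, the ratio of day 21 to sham was 0.0423, with a 95% interval of 0.00103 to 0.262 that covers counting error only.

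Lilrb4 encodes an immunoglobulin-like receptor that restrains activation of myeloid cells. The symbol is an older name of Lilrb4a, on the forward strand of chr10:51490956-51496611. It stood at 0.120 and 0.154 CPM in sham and at 24.5 and 25.1 CPM at day 1. It was highest at day 3, with 112 and 386 CPM, and then 53.5 and 199 CPM at day 7, 21.2 and 66.3 CPM at day 21 and 19.1 and 67.4 CPM at day 60. All 10 stroke libraries were above both sham libraries, and days 21 and 60 did not differ beyond their spread. The log2 fold change against sham was 7.41 ± 1.14, 10.74 ± 1.27, 9.76 ± 1.23, 8.23 ± 1.17 and 8.22 ± 1.17 from day 1 to day 60. Unlike Arg1, which shared its day 3 peak, Lilrb4 had a level at day 60 that was 316 times the sham mean.

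Reads of Lilrb4 can be confused with those of its neighbour. Gp49a, named Lilr4b in GENCODE, lies just before it at chr10:51480632-51486703 on the same strand, and an annotated readthrough gene, Gm49339, shares exons with both. The first 90 coding bases of each, from the start codon, are shown because a read from this stretch can be placed only by the 2 bases in capitals, where the genes differ.
Lilrb4: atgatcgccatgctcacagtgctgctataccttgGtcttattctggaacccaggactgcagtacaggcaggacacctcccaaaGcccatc
Gp49a: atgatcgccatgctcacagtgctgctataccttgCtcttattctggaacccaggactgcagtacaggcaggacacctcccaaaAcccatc
Over 907 aligned coding bases the genes were 96.0% identical. Of the 1554 different 50-base words in the coding transcripts of Lilrb4a, 441 (28.4%) also occur in those of Lilr4b. An antisense gene, Gm40645, overlaps Lilrb4a on the other strand, and the strand setting of the counting is not given in the sources used here. Gp49a followed Lilrb4 closely, with 0.120 and 0.0770 CPM in sham, 13.9 and 9.65 CPM at day 1, 64.2 and 233 CPM at day 3 and 6.53 and 33.5 CPM at day 60. The ratio of Lilrb4 to Gp49a counts was between 1.66 and 2.92 in all stroke libraries except day 7 replicate 1, where it was 5.95. The split between the 2 genes is therefore uncertain, while the sum of their counts moved no log2 fold change of Lilrb4 by more than its spread in any of 9 comparisons.

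Levels could be set against each other only per length, and the order can change with the length taken. Lilrb4 has 1381 bases in its longest coding transcript and 5227 over all annotated exons. Arg1 has 1477 and 2228, and Cd5l has 2036 by both. The orders below of Lilrb4 and Arg1 and of Siglec1 and Lyve1 at day 3 hold for the first length alone. So do those of Lilrb4 and Cd5l and of Arg1 and Mrc1 at day 7. Per kilobase of the longest coding transcript, mean ± SD CPM at day 3 was 180.5 ± 140.3 for Lilrb4, 77.8 ± 6.199 for Arg1, 24.4 ± 4.99 for Cd5l, 2.365 ± 1.463 for Mrc1, 1.18 ± 0.296 for Siglec1, 1.09 ± 0.183 for Lyve1 and 0.258 ± 0.0979 for Cd163. Lilrb4 and Arg1 did not differ beyond their spread there, nor did Mrc1, Siglec1 and Lyve1. At day 7 the order was Lilrb4 at 91.3 ± 74.35, Cd5l at 26.45 ± 10.55, Siglec1 at 5.32 ± 1.92, Arg1 at 1.23 ± 0.778, Mrc1 at 1.17 ± 0.2365, Lyve1 at 0.305 ± 0.03715 and Cd163 at 0.134 ± 0.0240. At day 60 Cd5l came first at 44.7 ± 29.5 and Lilrb4 next at 31.3 ± 24.8, which overlapped, and the other 5 were between 0.0653 ± 0.0923 for Cd163 and 1.14 ± 1.14 for Mrc1. From day 3 on, Cd5l and Lilrb4 thus made up most of the level of the 7 genes, joined by Arg1 at day 3 alone.

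The 2 libraries of a group differed along similar lines at several times. For Lilrb4 replicate 2 was 3.44, 3.71, 3.12 and 3.53 times replicate 1 at days 3, 7, 21 and 60, and for Gp49a 3.63, 10.2, 3.47 and 5.13 times. Over all tested genes, 11.9%, 5.67%, 4.87% and 10.5% had a ratio of 3 or more at those times. Cd5l went the other way, with replicate 2 at 0.747, 0.560, 0.798 and 0.363 times replicate 1. At day 1 replicate 1 was the higher for Siglec1, Mrc1 and Cd163, with ratios of 0.119, 0.134 and 0.0733, where 7.01% of all genes had a ratio of a similar size, at or under 1 in 3. The time of the highest level was the same in both replicates for Cd5l (day 60, with TMM scaling but not with plain totals), Siglec1 (day 7), Lyve1, Arg1 and Lilrb4 (day 3). For Mrc1 it was day 21 in replicate 1 and day 3 in replicate 2, and for Cd163 it was day 1 in replicate 1 and sham in replicate 2.

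**Figure D2:**
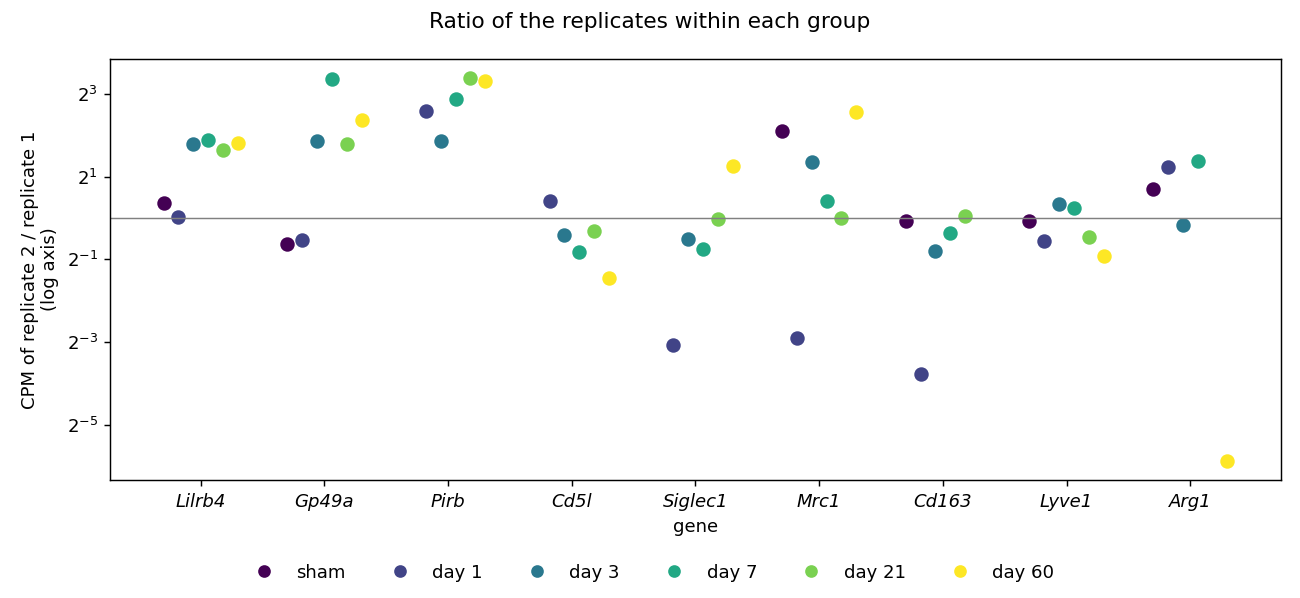
Ratio of CPM in replicate 2 to CPM in replicate 1 within each group, on a log axis, for the 7 genes and for Gp49a and Pirb; each point is 1 group, coloured by time, and groups with 0 counts in either replicate have no point. Lilrb4, Gp49a and Pirb lie above 1 at days 3 to 60, and Siglec1, Mrc1 and Cd163 lie far below 1 at day 1.

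Other genes of border macrophages were counted to set beside the 7, using the edgeR quasi-likelihood F test with Benjamini-Hochberg adjustment over all 15635 genes. Of 19 such genes, the numbers higher than sham were 7, 13, 14, 11 and 7 from day 1 to day 60, where 16.7%, 18.0%, 23.2%, 17.8% and 16.8% of all genes were. The shares of all genes called lower were 13.9%, 14.2%, 19.8%, 15.4% and 14.8%. These shares of all genes are also the ones to set beside the counts of the other lists below. The median log2 fold change of the 19 was 1.14, 4.28, 4.84, 2.63 and 1.65. Ms4a7, a membrane gene of border macrophages, rose by 7.60 ± 0.59 at day 7 (adjusted p = 3.91e-05) and was still 5.90 ± 0.55 above sham at day 60 (adjusted p = 9.82e-05). Cd36, a scavenger receptor for oxidised lipid, rose by 6.34 ± 0.74 at day 7 (adjusted p = 0.000186), and F13a1, coagulation factor XIII A, rose by 7.42 ± 1.24 (adjusted p = 0.00107). The count and the median of the 19 were thus largest at day 7, when Siglec1 was highest. In single libraries 0 to 4 genes of the list had 0 counts, with 3 in sham replicate 1, 3 in day 1 replicate 2, and 4 and 3 in replicates 1 and 2 at day 60. Timd4 was at 0 in at least 1 library of every group. Pf4, a platelet chemokine gene named after its values were seen, was higher than sham at days 1, 3 and 7 (adjusted p = 0.00846, 0.000126 and 0.000909) and was the 1 gene of the 19 called lower, at days 21 and 60. The lower call ended at day 21 without day 21 replicate 2, and at day 60 without either library of sham, day 7 or day 60 or without day 21 replicate 2, while 2 of the 19 were lower at day 60 without either day 1 library. The day 1 count was 4 without sham replicate 2, and the day 21 count was 5 without sham replicate 1 or day 21 replicate 2 and 7 without day 21 replicate 1.

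Some genes of monocytes and young macrophages were higher than sham from day 1. Of 20 genes, 12, 16, 13, 14 and 12 were higher at the 5 times, and none was lower. Lyz2, lysozyme, went from 13.1 and 13.6 CPM in sham to 4281 and 5467 CPM at day 7 (log2 fold change 8.51 ± 0.73, adjusted p = 4.59e-05). Ccr2, the receptor by which monocytes leave the marrow, was highest at day 3 with 20.4 and 3.535 CPM (9.85 ± 1.79, adjusted p = 0.00308). Plac8 was highest at day 60, as Cd5l was, with 26.6 and 24.5 CPM against 0 and 0.115 CPM in sham (8.21 ± 0.76, adjusted p = 9.82e-05). The day 1 count was 7 without sham replicate 2, and the day 21 count was 9 without sham replicate 1 or day 21 replicate 1.

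Few of the genes that macrophages share with microglia were higher at day 1, and most were at day 3. Of 20 genes, 2, 18, 19, 16 and 8 were higher than sham at the 5 times, and Aif1 was lower at day 1. Cd68, a lysosomal protein, rose by 5.27 ± 0.43 at day 3 (adjusted p = 0.000126), and Emr1, which encodes F4/80, rose by 5.06 ± 0.38 at day 7 (adjusted p = 3.59e-05). Without sham replicate 1 the count was 1 at day 1 and 3 at day 60, without sham replicate 2 it was 10 at day 21 and 4 at day 60, and it was 1 at day 1 without day 1 replicate 1 or day 21 replicate 1. The Aif1 call at day 1 ended without sham replicate 2 or day 1 replicate 1, 2 genes were lower there without day 1 replicate 2, day 3 replicate 2 or either day 60 library, and 3 with the replicate number as a block. The summed level of the list was 5484 to 10710 CPM at days 3 and 7 and 1393 and 1720 CPM at day 60, against 679 and 841 CPM in sham.

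Homeostatic microglial genes were present in every group, so the 7 genes were not measured in libraries free of resident myeloid RNA. Their summed level was 553 and 612 CPM in sham, 293 and 281 CPM at day 1, 2325 and 2668 CPM at day 3, 4483 and 3353 CPM at day 7, 1264 and 1354 CPM at day 21 and 762 and 771 CPM at day 60. Of 12 genes, P2ry13 alone had 0 counts in a library, day 60 replicate 1. P2ry12, the purine receptor of resting microglia, was lower than sham at day 1 (-3.75 ± 0.59, adjusted p = 0.00250) and at day 60 (-4.48 ± 0.61, adjusted p = 0.000686). At day 60, then, Cd5l and Siglec1 were above sham while P2ry12 was below it. Olfml3, another of the 12 genes, was above sham at day 60 as well (3.53 ± 0.37, adjusted p = 0.000185). So was the summed level of the 12 in both libraries. Of the 12 genes 0, 4, 6, 2 and 1 were higher than sham at the 5 times, and 3 were lower at day 1 and 7 at day 60. Without sham replicate 1 the count of higher genes was 2 at day 3 and 3 at day 7, without either sham or either day 21 library it was 1 at day 21, and without either sham library or day 60 replicate 1 the count of lower genes at day 60 was 4. The count of lower genes at day 1 was 5 without either day 60 library and 7 with the replicate number as a block, and those of higher genes at days 21 and 60 were 5 and 2 with the block. The part of microglia in the values of the 7 genes was not tested.

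**Figure D3:**
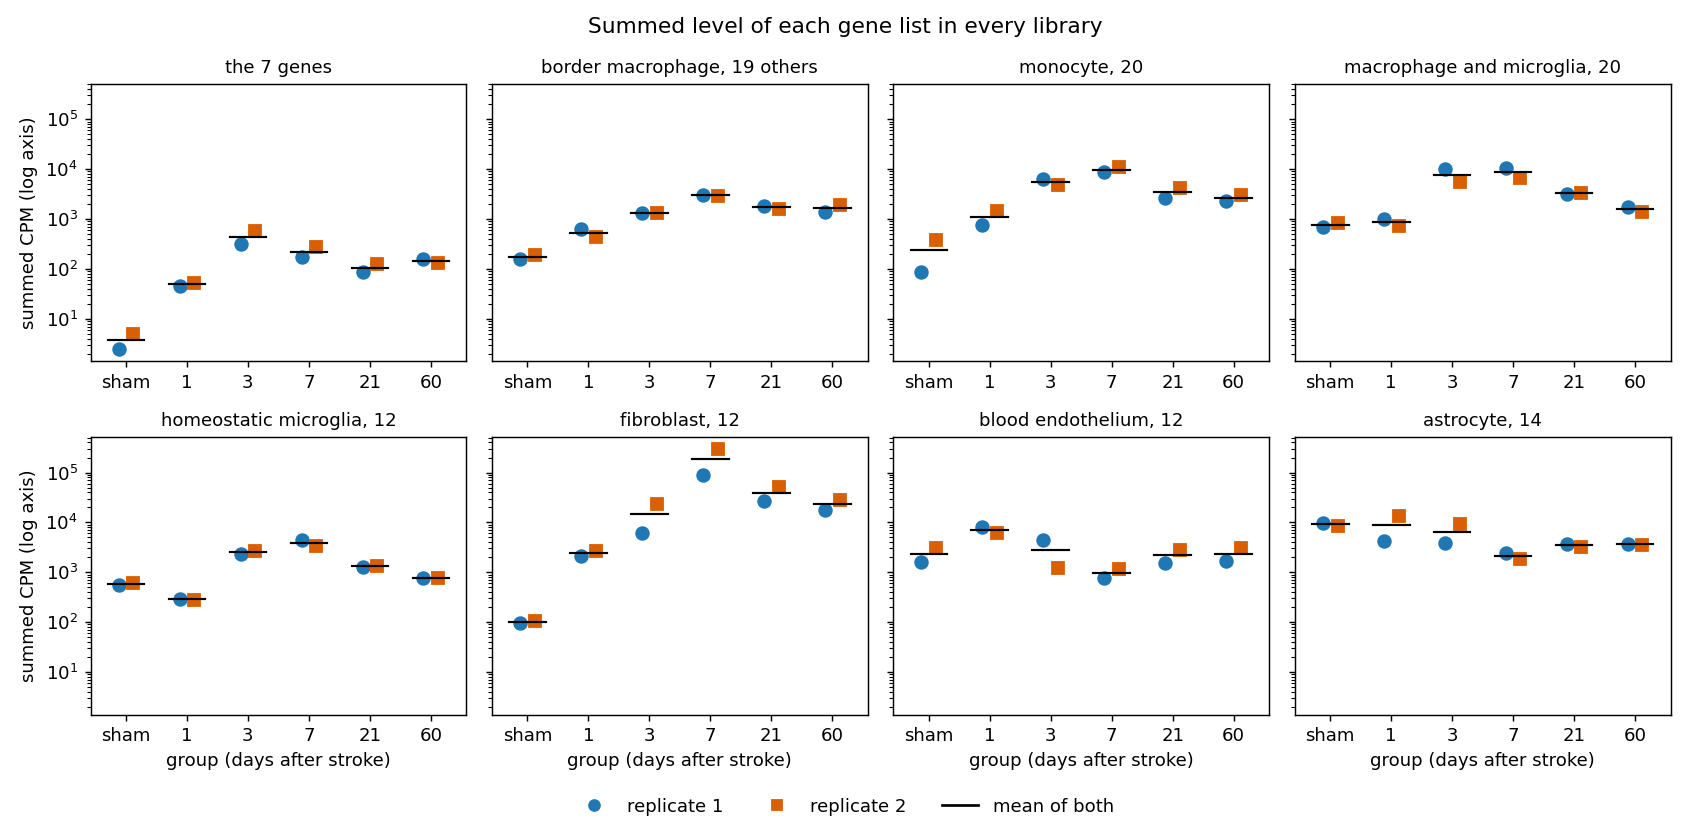
Summed CPM, on a log axis, of the 7 genes and of 7 marker lists in every library, against the group (sham or days after stroke); circles are replicate 1, squares replicate 2 and bars the mean of both. The 7 genes peak at day 3 and the lists of border macrophage, macrophage and microglial, and fibroblast genes at day 7, by the mean of both libraries.

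Genes tied to Arg1 were taken from arginine and polyamine metabolism. Odc1, the enzyme that turns ornithine into putrescine, was at 60.1 and 69.6 CPM in sham, 820.3 and 836 CPM at day 1 and 184.5 and 152 CPM at day 3, so its highest level came before that of Arg1 (log2 fold change 3.67 ± 0.37 at day 1, adjusted p = 0.000488). Slc7a2, a transporter for cationic amino acids, was highest at day 21 with 249 and 174 CPM, when Arg1 was at or under the floor (4.08 ± 0.50 against sham, adjusted p = 0.000357). Of 16 genes tested out of 17 in the files, 7, 6, 5, 4 and 2 were higher than sham at the 5 times, and 1, 1, 3, 1 and 2 were lower. The higher ones were 43.8%, 37.5%, 31.2%, 25% and 12.5% of the 16, against 16.7%, 18.0%, 23.2%, 17.8% and 16.8% of all genes. The lower ones were 6.25%, 6.25%, 18.8%, 6.25% and 12.5%, against 13.9%, 14.2%, 19.8%, 15.4% and 14.8%. The share lower was thus under that of all genes at each time, and the share higher was at day 60. These counts rest on few libraries. The higher counts at days 1, 3, 21 and 60 were 2, 0, 1 and 1 without sham replicate 1, and those at days 1, 3, 7 and 21 were 4, 0, 3 and 2 without sham replicate 2. The day 1 count was 2 without day 1 replicate 1, the day 3 count was 2 without day 3 replicate 2 and 3 without day 21 replicate 1, the day 7 count was 3 without day 7 replicate 2, and the day 21 count was 2 without either day 21 library. The count of lower genes was 0 at day 1 without either sham or either day 1 library, and 0 at day 3 without sham replicate 2 or day 3 replicate 1. At day 7 it was 1 without day 7 replicate 2 and 5 without either day 3 library. At day 21 it was 0 without sham replicate 1 or day 21 replicate 2 and 2 without either day 3 library, and at day 60 it was 1 without sham replicate 1 and 0 without sham replicate 2 or day 60 replicate 2. With the replicate number as a block 4 genes were higher at day 60, and 2, 2, 5, 2 and 3 were lower. Nos2, which competes with arginase for arginine, was at 4.36 and 7.63 CPM in sham, 29.6 and 27.2 CPM at day 1, 30.6 and 10.9 CPM at day 3 and 4.23 and 6.18 CPM at day 7. Like Arg1 it was above sham in both libraries at days 1 and 3, but at day 21 it stood at 30.8 and 49.3 CPM.

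Genes of macrophage activation driven by interleukin 4, which induces Arg1 and Mrc1 in cultured macrophages, were higher in part. Of 14 genes, 6 were higher than sham at days 1, 3 and 7, 7 at day 21 and 5 at day 60, and none was lower. The receptor chain Il4ra was highest at day 1 with 416 and 129 CPM against 6.03 and 6.47 CPM in sham (5.44 ± 0.66, adjusted p = 0.000977). Chil3, which alternatively activated macrophages secrete, was highest at day 3 with 22.3 and 54.7 CPM, as Arg1 was (6.22 ± 1.41, adjusted p = 0.00882). Clec7a, the beta-glucan receptor dectin-1, was highest at day 7 with 166 and 76.2 CPM, as Siglec1 was (8.62 ± 0.93, adjusted p = 0.000129). These 3 genes thus peaked in the order of days 1, 3 and 7. Il13ra1, named by the same rule, was called higher at all 5 times and changed less between them. Its log2 fold changes were 3.67 ± 0.45, 3.58 ± 0.45, 4.50 ± 0.47, 4.19 ± 0.46 and 3.44 ± 0.45 from day 1 to day 60.

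Genes of haem and iron handling, the pathway that Cd163 serves, were higher in part. Hmox1, which breaks down haem, was at 4.06 and 3.60 CPM in sham, 846 and 631 CPM at day 1 and 56.2 and 52.9 CPM at day 60 (7.59 ± 0.42 at day 1, adjusted p = 3.81e-05, and 3.83 ± 0.36 at day 60, adjusted p = 9.82e-05). Hp, haptoglobin, whose complex with haemoglobin is the cargo of Cd163, was at 1.73 and 0.529 CPM in sham and 222 and 105 CPM at day 60 (7.26 ± 0.69, adjusted p = 0.000106), when Cd163 had 0 counts and 0.580 CPM. Slc11a1, an iron transporter of phagosomes, rose by 5.09 ± 0.42 at day 3 (adjusted p = 0.000126). Of 17 genes for uptake of haem and iron, 7, 10, 9, 8 and 7 were higher than sham at the 5 times, the day 3 count being 6 without either sham library. Lower were Fth1 and Tfrc at day 7 and Tfrc at day 60. Without sham replicate 2 or day 7 replicate 2 only 1 was lower at day 7, without sham replicate 2 or day 60 replicate 1 none was at day 60, and the day 60 count was 2 with the replicate number as a block.

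**Figure D4:**
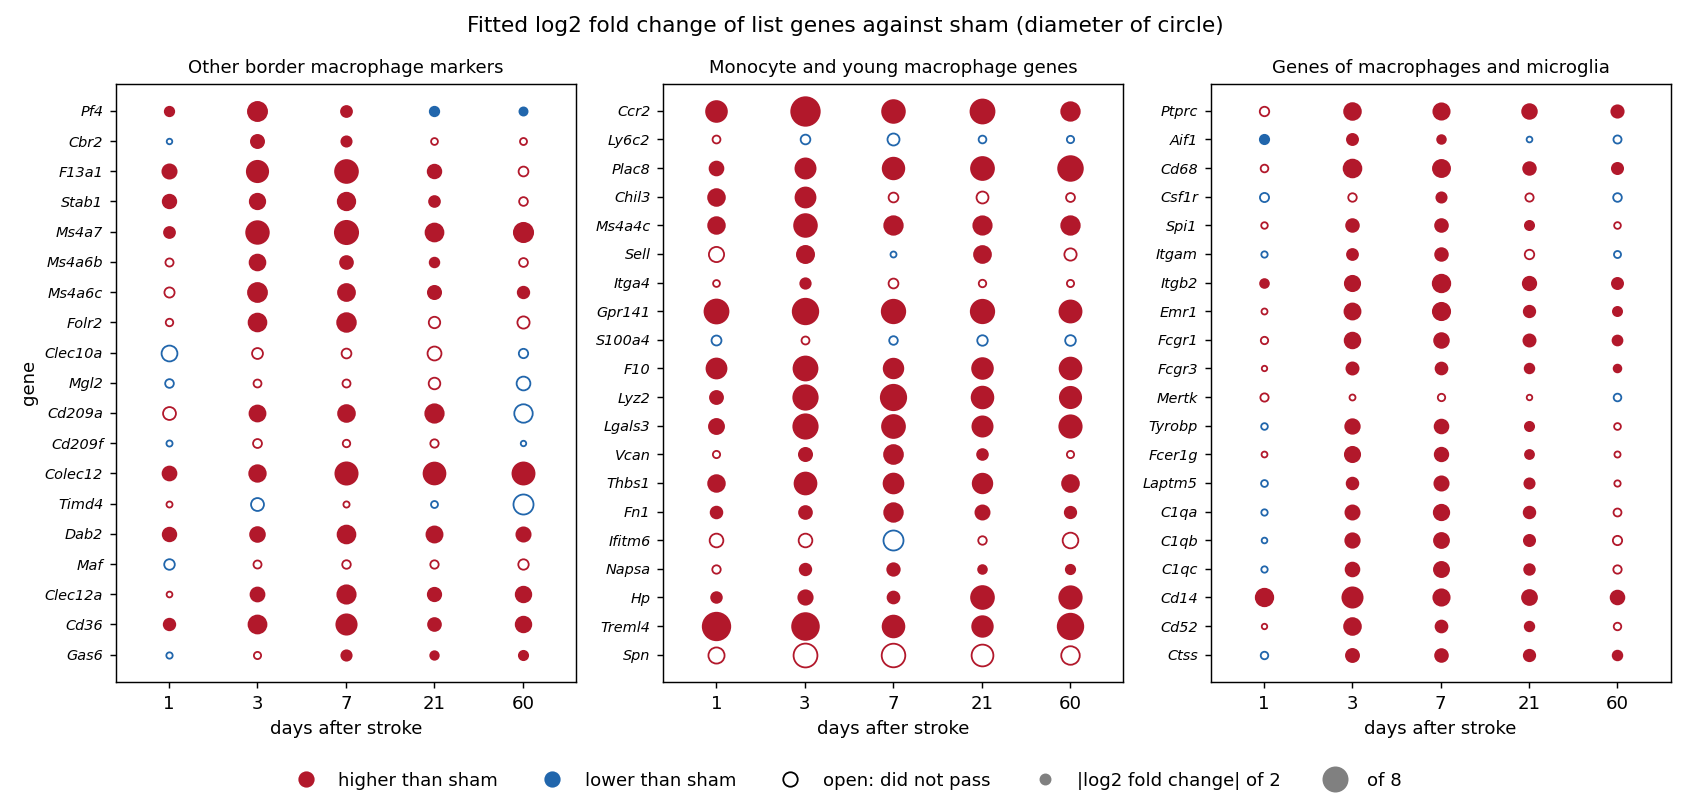
Fitted log2 fold change against sham of 19 other border macrophage genes, 20 monocyte genes and 20 genes of macrophages and microglia at each time; the diameter of a circle is the size of the change, red is higher and blue lower, and filled circles passed an adjusted p under 0.05. Of the macrophage and microglial genes 2 were higher at day 1 and 19 at day 7, while 12 of the monocyte genes were already higher at day 1.

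Many ligands and receptors that draw in monocytes and keep macrophages alive were higher than sham. Of 18 genes, 11, 13, 15, 13 and 11 were higher at the 5 times, and Cx3cr1 was lower at day 60. The chemokine Ccl2 had its highest level at day 1, before that of Arg1 and Lilrb4, with 407 and 215 CPM against 0.179 and 0.577 CPM in sham (9.52 ± 0.75, adjusted p = 0.000334). Ccl7, which also acts through Ccr2, was at 153 and 128 CPM at day 21, where Cd5l was at 46.2 and 36.8 CPM and Arg1 was near 0 (log2 fold change 10.50 ± 0.87 at day 21, adjusted p = 6.04e-05). The day 1 count was 7 without sham replicate 2 or day 1 replicate 1, and the Cx3cr1 call ended without either sham library or day 60 replicate 1, while with the replicate number as a block 2 genes were lower at day 60.

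Genes with a like pattern were sought for each of the 7 by Pearson r of log2 CPM over the 12 libraries, which share the sham group and the gap in depth between replicates. Nearest to Cd5l were Sdf2l1 (r = 0.988), Cxcl16 (0.987) and Tmem106a (0.981). Nearest to Siglec1 were Unc93b1 (0.974), which moves nucleic acid sensing receptors to endosomes, Hpse (0.973), heparanase, and Cd22 (0.970), itself a receptor of the same lectin family. Nearest to Mrc1 were Galnt12 (0.905), Sema3d (0.869) and Gab3 (0.853), and nearest to Cd163 were Fastkd3 (0.924), Zfp943 (0.918) and Gpbp1 (0.883). Nearest to Lyve1 were Prg4 (0.899), Sept10 (0.865) and Cxcl2 (0.863), nearest to Arg1 were Ube2j2 (0.925), Syncrip (0.925) and Knop1 (0.915), and nearest to Lilrb4 were Gp49a (0.986), Emp3 (0.983) and Pdia6 (0.983). None of the 7 was among the nearest genes of another, but Cd163 and Lyve1 could not have been. Only genes with a mean of at least 10 CPM in a group were searched, and their highest group means were 2.18 and 3.16 CPM. The choice of measure decides most of these names, since 2 of the 21 were named again with Spearman rho and 16 of 21 with a prior count of 0.5 in place of 2. Among the 7 themselves r ran from -0.406 for Cd5l and Cd163 to 0.876 for Cd5l and Siglec1.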

How the data were processed

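The authors deposited raw counts per gene symbol. Per the submitters' processing notes they used Bowtie2 2.3.4.2, HTSeq 0.6.1 and mm10. The annotation, the strand setting and the treatment of multi-mapped reads are not given in the sources used here. The series table and the library files held the same value in 189288 of 189288 cases.

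Counts were fitted with edgeR 4.0.16 in R 4.3.3 (TMM, filterByExpr with a minimum count of 10, 1 quasi-likelihood fit of all 12 libraries, 6 residual degrees of freedom, median biological coefficient of variation 0.408), for 5 comparisons with sham and 4 of neighbouring times. Adjusted p-values are Benjamini-Hochberg over 15635 genes, called at 0.05. The fit was tested on simulated data.

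The 7 genes and the lists were chosen with earlier results of these data known. The naming rule took up to 4 called genes a list by size of change (at least 1 CPM in the higher group), the most abundant ones if fewer than 2 passed, Gp49a, and for each of the 7 the 3 most correlated genes with a mean of at least 10 CPM in a group. Nos2, Pf4, Prox1 and genes named for 0 counts fall outside that rule and were chosen after their values were seen.

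Deviations of same-numbered libraries from their group means had correlations across genes of 0.319 to 0.713, over 0.1 for each of 15 pairs of groups. The replicate number thus goes with a shared difference, known from the data and not from the labels. The fit behind the reported calls and standard errors has no term for that number. With a block for it, 6754 genes were called at day 1 against sham in place of 4774. The block was run as an alternative, as were DESeq2 1.42.0, its size factors, other filters, thinned counts and leaving out each library. Gene positions and coding sequences are from GENCODE, and promoters from RefSeq.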

Additional observations from a re-analysis of the deposited data

Results flagged for a closer look

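Arg1 was above sham in both libraries at day 3 and below it in both at day 21. The fitted log2 fold changes were 9.39 and -3.99, a difference of 13.38 that was not tested, since the gene was picked with these values in view. The value at day 21 rests on 1 count in replicate 1 and 0 in replicate 2, against 22 counts in sham, and a fitted change at so few counts depends on the prior count.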

How the results depend on the processing

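Of 1143 recomputed log2 fold changes of the 7 genes, 66 moved by more than the spread between replicates. These were 16 of 63 with thinned counts and 10 of 63 with DESeq2's Wald test. With DESeq2's size factors and with the replicate block 2 of 63 moved each, and 36 moved on leaving out a library. A change of direction was counted only where the libraries of the groups did not overlap, and 0 were found there. Where libraries overlapped, changes of direction were not counted. Of 144 counts recomputed with all libraries, 136 stayed within 1.5 times of the value reported. The exceptions were counts of genes called between neighbouring times. From day 1 to day 3 DESeq2's Wald test called 1426 genes and the replicate block 1313 against 558, from day 3 to day 7 they called 2620 and 2853 against 983, from day 7 to day 21 they called 1039 and 635 against 69, and from day 21 to day 60 they called 115 and 21 against 0, where 847 genes had an unadjusted p under 0.05 in edgeR.

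Leaving out 1 library, which leaves a group with a lone library assumed to vary like the others, gave 1954 to 5037 genes called at day 1 against sham, 2941 to 5315 at day 3, 4476 to 6949 at day 7, 2628 to 5593 at day 21 and 2654 to 5317 at day 60. Between neighbouring times it gave 239 to 557, then 0 (without day 7 replicate 2) to 1412, then 2 (without day 7 replicate 1) to 228, and last 0 to 2. The border macrophage list had 4 to 7, 12 to 13, 12 to 14, 5 to 11 and 5 to 8 genes higher than sham at the 5 times, the monocyte list 7 to 13, 12 to 17, 11 to 14, 9 to 14 and 8 to 13, and the general macrophage list 1 to 2, 17 to 18, 16 to 19, 10 to 17 and 3 to 8.

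Of 216 calls of named list genes 139 were kept under every setting run. Without sham replicate 1 49 were lost, without sham replicate 2 65, with thinned counts 11, with DESeq2's size factors 3 and with the replicate block 1. Of 63 comparisons of the 7 genes 59 had the same overlap or order of libraries with plain totals and 62 with DESeq2's size factors, and those that differed were between neighbouring times. Summing Lilrb4 and Gp49a was chosen after seeing the data. Depth limits Cd163, with 0 to 73 counts in replicate 1, and Arg1 in sham and at days 21 and 60, with 0 to 20 counts in a library. It also limits Lyve1, with 9 to 46 counts in replicate 1. Siglec1 had 14 and 10 counts in replicates 1 and 2 at day 1, and 16 in replicate 1 at day 60.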

Other observations

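Some surface genes of myeloid cells with close relatives differed, after stroke, between the replicates more than Lilrb4 did. Ly6c2, a surface gene of classical monocytes next to its near copy Ly6c1, was between 0.657 and 6.90 CPM in the 6 replicate 1 libraries and between 33.0 and 492 CPM in the 6 replicate 2 libraries, with no overlap in any group. Pirb, a relative of Lilrb4, was 6.02, 3.63, 7.33, 10.5 and 10.0 times as high in replicate 2 at days 1, 3, 7, 21 and 60, while in sham it had 0.418 CPM in replicate 1 and 0 counts in replicate 2. These genes were chosen after their values were seen.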
